A study of Homo sapiens with 18 samples.

Results

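The genes described here are 10 plasma membrane amino acid transporters, SLC7A5, SLC3A2, SLC7A1, SLC7A2, SLC1A4, SLC1A5, SLC38A1, SLC38A2, SLC6A9 and SLC43A1, measured in MDA-MB-231 cells after silencing of RagC. They were chosen by name, as the rows of the count table whose Ensembl identifiers map to these symbols, and all 10 were found among the 57820 genes of the table. MDA-MB-231 is an established line of triple-negative human breast cancer cells. The study silenced RagC, which tethers the growth kinase complex mTORC1 to the lysosome, and asked which genes are altered when mTORC1 is repressed. The groups were siRagC1 and siRagC2, transfected with 1 or the other of 2 independent siRNAs against RagC, and siCtrl, transfected with a control siRNA. Each group had 6 libraries, 18 in all, and all came from cells labelled wild type, grown in L-15 medium with serum and added L-glutamine, lipofected in OPTI-MEM and harvested 72 h after lipofection, with 500 ng of total RNA per library. All 10 members passed the filter on low counts, with 15307 genes tested in all.

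Cells take up amino acids through solute carrier proteins in the plasma membrane, some of which are exchangers that release 1 amino acid for another and some of which are driven by the sodium gradient. Amino acids that reach the cytosol and the lysosome are sensed by the Rag GTPases, which bring mTORC1 to the lysosomal surface. In the other direction, the transcription factor ATF4, made when amino acids are scarce or when mTORC1 is active, is known to raise transcription of many of these transporter genes through a short sequence called the amino acid response element, while MYC and the MiT/TFE factors bind a different short sequence, the E-box.

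RRAGC (ENSG00000116954), the gene of RagC, was checked first. It had 12.3, 24.3 and 31.9 CPM (read counts normalised to the scaled library size) in the lowest, the median and the highest siRagC1 library and 19.3, 26.1 and 40.8 CPM in the siRagC2 libraries, against 60.6, 61.5 and 67.9 CPM in the siCtrl libraries. No library of either RagC siRNA reached the siCtrl range. Its mean stood at 38.3% of siCtrl with siRagC1 and 44.4% with siRagC2, and the log2 fold changes were -1.43 ± 0.17 (SE, n = 6 per group; edgeR quasi-likelihood test, Benjamini-Hochberg adjusted p = 0.000373) and -1.20 ± 0.17 (adjusted p = 0.00135 by the same test). RRAGC stood lower in the libraries of code series D1103 (mean 15.6 CPM with siRagC1 and 20.5 CPM with siRagC2) than in those of D1221 (28.1 and 31.4 CPM). The code series is part of the library code: D1103 holds replicates 1 and 2 of each group and D1221 replicates 3 to 6, and it was a term in the fits unless stated otherwise. In the D1221 libraries alone the siRagC2 value for RRAGC was -0.95 (adjusted p = 0.0553 by the same test).

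The libraries held 14.8 M to 71.6 M counts, with medians of 36.1 M for siRagC1, 24.6 M for siRagC2 and 21.4 M for siCtrl, and no 2 libraries of a group agreed within counting noise. Markers of mesenchymal-like cells were high in all libraries (median 4133 CPM for VIM, 943 CPM for CD44 and 1343 CPM for AXL). ESR1 and PGR, the hormone receptors that triple-negative lines lack, had medians of 0.045 and 0.085 CPM, and PTPRC, a leukocyte marker, had 0.412 CPM. Other receptor, luminal and epithelial markers were higher than ESR1 and PGR. Their medians were 98.1 CPM for ERBB2, 263 CPM for KRT18, 15.8 CPM for EPCAM, 8.28 CPM for GATA3 and 1.204 CPM for CDH1. The labels call the libraries biological replicates, but separate cultures are not stated, and the p-values cover only the spread among these libraries. In bulk RNA, fewer cells of a kind and less RNA per cell cannot be told apart.

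Short promoter sequences are shown because they carry the recognition sequences of the factors named above, and they allow the members' measured changes to be read beside them. RefSeq start-site windows of build GRCh38.p14 ran from 250 bases before to 50 bases after an annotated start. They were given for 9 of the 10 members, all but SLC7A2, with 16 windows in all. TGATGNAA, the core of the amino acid response element read on both strands, was present in 5 of the 16 windows, from 5 of the 9 genes, against 3.62% of all 35116 windows. CACGTG, the E-box, was present in 3 windows from 3 genes, against 7.26% of all windows. Counted by gene, 4.46% of all 27305 genes with windows held the response element core and 8.77% the E-box. The 2 motifs do not overlap in any member. The sequences below are 5′ to 3′, with the motif in capitals. They are given for the subunits of the SLC7A5 exchanger, for 2 pairs of related genes and for SLC43A1, all of which are compared below. All lie on the genome's minus strand, which is the gene's own strand except for SLC3A2 and SLC1A4. In these 2 genes the motif is on the opposite strand. A match describes the letters only, not binding.
SLC7A5, chr16:87869620-87869649, E-box before the start: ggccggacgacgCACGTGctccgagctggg
SLC3A2, chr11:62881725-62881748, response element core after the start: ggagcTGATGTAAggagtcctgca
SLC1A4, chr2:64989381-64989410, response element core across the start: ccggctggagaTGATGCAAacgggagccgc
SLC1A5, chr19:46784893-46784922, response element core before the start: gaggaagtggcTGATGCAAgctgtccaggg
SLC1A5, chr19:46787326-46787355, E-box before another start: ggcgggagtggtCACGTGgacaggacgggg
SLC38A1, chr12:46266502-46266531, response element core across the start: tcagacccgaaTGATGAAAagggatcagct
SLC43A1, chr11:57515797-57515826, E-box before the start: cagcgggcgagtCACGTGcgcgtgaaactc

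SLC1A4 and SLC1A5 thus hold the same 8 letters, TGATGCAA, in a window each. The windows of SLC38A2 and SLC6A9 hold neither motif, and SLC7A1 holds a response element core with another letter at the free position. In SLC3A2, SLC1A4, SLC1A5, SLC38A1 and SLC43A1, another annotated start has a window with neither motif. Which of the starts these cells use was not tested. SLC43A1 was called by edgeR in the comparison of siRagC1 with siCtrl below, a call that did not hold under 16 of 30 alternatives. SLC7A5 and SLC1A5, the other members with an E-box, were not called there and had log2 fold changes of -0.08 and -0.15. The 250 bases before the annotated start of SLC43A1 with the E-box are shown whole, to give the E-box its setting (minus strand, chr11:57515703-57515952).
SLC43A1 upstream: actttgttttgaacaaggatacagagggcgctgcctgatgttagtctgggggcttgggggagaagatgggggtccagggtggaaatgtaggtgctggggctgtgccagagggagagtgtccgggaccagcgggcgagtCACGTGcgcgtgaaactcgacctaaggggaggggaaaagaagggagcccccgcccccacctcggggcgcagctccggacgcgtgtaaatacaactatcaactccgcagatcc

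The members covered a wide range of levels in these cells. Levels between genes were compared as CPM per kb of merged exon, with exon lengths from GENCODE v29. The most abundant were SLC1A5, the main glutamine importer of many tumour cells, at 54.9 ± 3.27 CPM per kb with siRagC1, 52.0 ± 4.15 with siRagC2 and 61.1 ± 8.36 with siCtrl (mean ± SD, n = 6 each), SLC7A5 at 54.1 ± 6.72, 57.3 ± 7.59 and 56.9 ± 5.13, and SLC38A2 at 49.3 ± 3.67, 53.3 ± 5.42 and 54.5 ± 4.12 in the same order of groups. The libraries of these 3 genes overlapped, so their order is not fixed, and it was SLC7A5, SLC38A2 and SLC1A5 with siRagC2. SLC38A1 followed at 41.7 ± 4.11 with siRagC1, 40.5 ± 1.57 with siRagC2 and 39.2 ± 3.89 with siCtrl. With siRagC1 its libraries (38.2 to 48.8) overlapped those of SLC38A2 (45.3 to 53.9) and SLC7A5 (42.9 to 62.4). Then came SLC7A1 with 24.7 ± 1.30 and SLC3A2 with 19.5 ± 1.39 CPM per kb in siCtrl libraries, which did not overlap with each other or with SLC38A1. SLC7A2 (6.43 ± 1.03 in siCtrl libraries) and SLC6A9 (5.61 ± 1.44) overlapped. SLC43A1 stood at 3.42 ± 0.328 with siRagC1, 3.05 ± 0.319 with siRagC2 and 2.88 ± 0.294 with siCtrl, and SLC1A4 was lowest, at 0.523 ± 0.0705, 0.438 ± 0.0614 and 0.593 ± 0.149. From SLC38A1 down, the order of the genes by group mean was the same in all 3 groups. With siRagC1, however, the libraries of SLC6A9 (3.65 to 7.31) overlapped those of SLC43A1 (3.06 to 3.86).

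**Figure D1:**
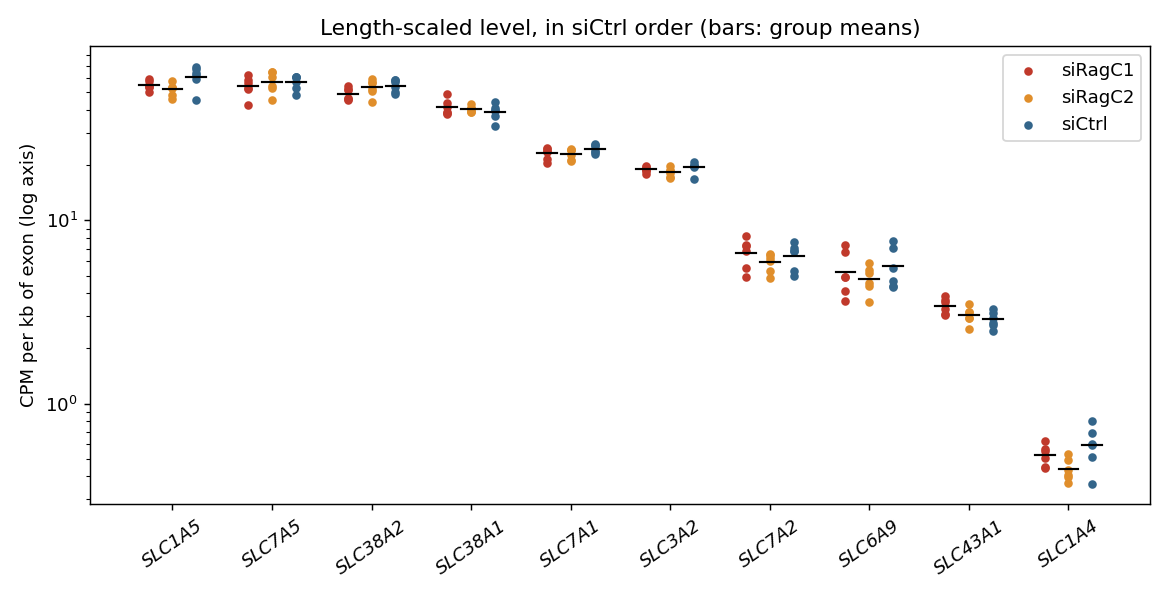
Level of each transporter gene in CPM per kb of exon (log axis), 1 point per library, with siRagC1, siRagC2 and siCtrl side by side, bars at the group means and genes in the order of their siCtrl means. The 3 most abundant genes overlap, and SLC1A4 lies below all others, at 0.593 ± 0.149 CPM per kb with siCtrl.

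Against siCtrl, the changes of these transporters were small. With siRagC1, 1 of the 10 members was higher (SLC43A1) and 0 were lower by edgeR's quasi-likelihood test at an adjusted p under 0.05. In the same comparison 2.04% of the 15307 tested genes were called, 1.41% as higher and 0.627% as lower. At an unadjusted p under 0.05, 3 members passed (SLC7A1 and SLC38A2 with negative and SLC43A1 with a positive log2 fold change), beside 2613 of the 15307 tested genes. DESeq2 and limma-voom also called SLC43A1 and no member as lower. With siRagC2, edgeR called 0 of 10 members in either direction, against 3.23% of all tested genes, 1.87% as higher and 1.36% as lower. Beside 2833 of the 15307 tested genes, 4 members passed at an unadjusted p under 0.05, all with negative values (SLC7A1, SLC1A4, SLC1A5 and SLC6A9). DESeq2 called 3 of them as lower (SLC7A1, SLC1A4 and SLC1A5) and limma-voom 0.

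The log2 fold changes of the members ran from -0.18 to 0.25 with siRagC1 and from -0.40 to 0.08 with siRagC2. Their medians were -0.09 and -0.10, beside 0.0051 and 0.0047 over all tested genes, and 7 of 10 were negative with each siRNA, beside 48.3% of all tested genes in both comparisons. For the mean of both siRNAs against siCtrl, edgeR called 0 members, against 4.95% of all tested genes, 2.72% as higher and 2.23% as lower. An unadjusted p under 0.05 was reached by 4 members, beside 3060 of the 15307 tested genes. In that comparison DESeq2 called 2 members as lower (SLC7A1 and SLC1A5) and limma-voom 0. The comparisons share the siCtrl libraries, so that a high or low siCtrl library moves all of them.

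**Figure D2:**
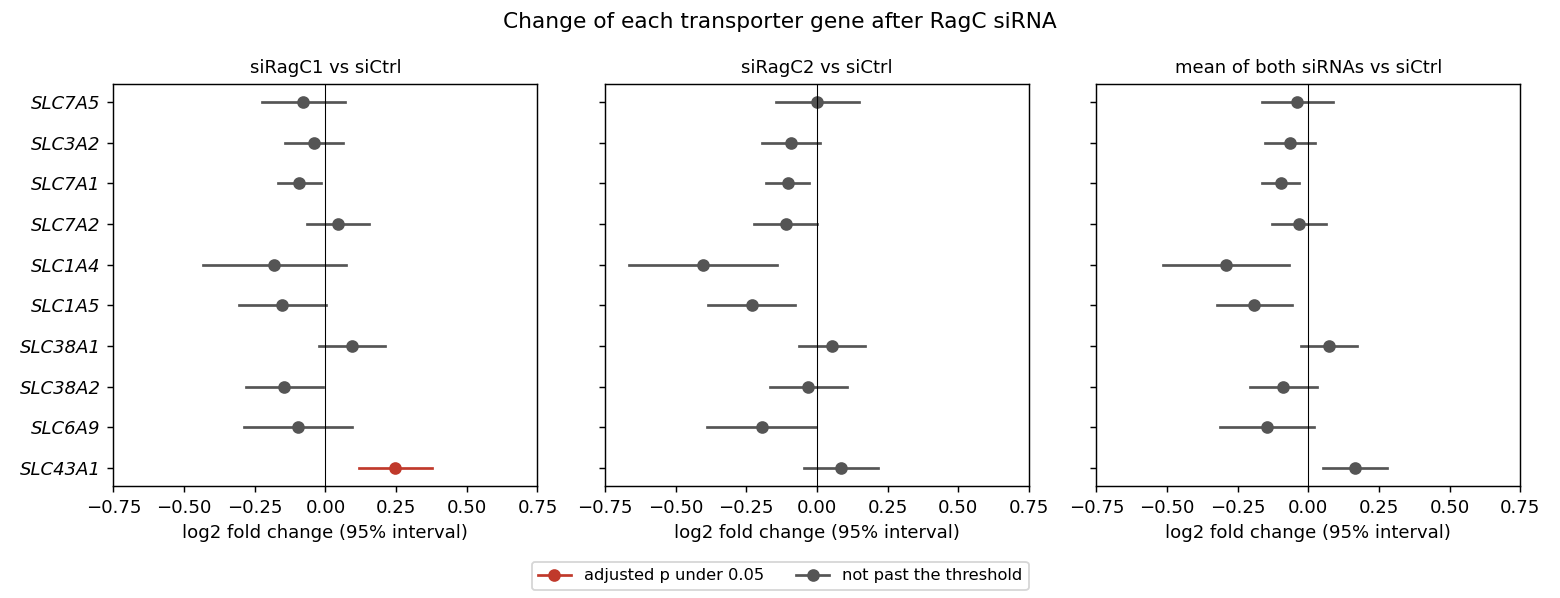
Log2 fold change of each transporter gene with its 95% interval (horizontal axis), for siRagC1, siRagC2 and the mean of both siRNAs against siCtrl. SLC43A1 with siRagC1, at 0.25, is the only value past the threshold (red), and SLC1A4 with siRagC2, at -0.40, is the lowest.

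SLC7A5 (LAT1, ENSG00000103257) and SLC3A2 (4F2hc or CD98, ENSG00000168003) form the exchanger that imports leucine and other large neutral amino acids, with SLC7A5 as the transporting subunit and SLC3A2 as the chaperone that brings it to the membrane. SLC7A5 had 203, 258 and 296 CPM in the lowest, the median and the highest siRagC1 library and 217, 272 and 309 CPM in the siRagC2 libraries, against 231, 279 and 290 CPM in the siCtrl libraries. The 3 groups overlapped nearly throughout. Its log2 fold change was -0.08 with siRagC1 (95% interval -0.23 to 0.07; edgeR adjusted p = 0.615) and 0.00 with siRagC2 (-0.15 to 0.15; edgeR adjusted p = 0.996).

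SLC3A2 had 92.4, 98.2 and 103 CPM with siRagC1 and 88.8, 95.3 and 103 CPM with siRagC2, against 87.1, 103 and 108 CPM with siCtrl, again as the lowest, the median and the highest library. All libraries of both siRNAs lay within the siCtrl range. That range was widened by siCtrl replicate 6, which at 87.1 CPM lay below the other siCtrl libraries. The log2 fold changes were -0.04 (95% interval -0.14 to 0.06; edgeR adjusted p = 0.738) with siRagC1 and -0.09 (-0.19 to 0.01; edgeR adjusted p = 0.339) with siRagC2.

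SLC43A1 (LAT3, ENSG00000149150) carries large neutral amino acids by facilitated diffusion, without exchange and without SLC3A2. Its libraries read 10.8, 12.1 and 13.6 CPM with siRagC1 and 9.07, 10.8 and 12.4 CPM with siRagC2, against 8.83, 10.03 and 11.6 CPM with siCtrl (lowest, median, highest). Of the 6 siRagC1 libraries, 4 lay above the highest siCtrl library, and the other 2 overlapped with the siCtrl range. The change with siRagC1 was 0.25 ± 0.06 on the log2 scale (95% interval 0.12 to 0.38; edgeR adjusted p = 0.0408), a fold of 1.19, and ranked 248 of all tested genes by p. Set against the siCtrl mean of the same code series, 6 of 6 siRagC1 and 4 of 6 siRagC2 libraries were higher. With siRagC2 the value was 0.08 ± 0.06 (95% interval -0.05 to 0.22; edgeR adjusted p = 0.535) and for the mean of both siRNAs 0.17 ± 0.05 (edgeR adjusted p = 0.0823).

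The siRagC1 value of SLC43A1 was alike in the code series, at 0.23 ± 0.11 in D1103 and 0.26 ± 0.08 in D1221. The call did not hold under 16 of 30 alternatives, over which the log2 fold change ran from 0.22 to 0.27 and the adjusted p from 0.00887 to 0.665. Among these were 10 of the 18 fits that left out 1 library (siRagC1 replicates 1 to 5, siCtrl replicates 1, 2 and 5, and siRagC2 replicates 3 and 4), with adjusted p from 0.0507 to 0.101 in those fits by the same edgeR test.

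SLC7A1 (CAT1, ENSG00000139514) and SLC7A2 (CAT2, ENSG00000003989) import the cationic amino acids arginine, lysine and ornithine. SLC7A1 had 159, 183 and 191 CPM with siRagC1 and 162, 181 and 188 CPM with siRagC2, against 177, 191 and 202 CPM with siCtrl (lowest, median, highest). Below the lowest siCtrl library lay 2 siRagC1 and 3 siRagC2 libraries, and the rest overlapped. All 6 libraries of each siRNA were below the siCtrl mean of their code series, and so were 2 of the 6 siCtrl libraries. The log2 fold changes were -0.09 ± 0.04 (edgeR adjusted p = 0.188) with siRagC1, -0.10 ± 0.04 (0.121) with siRagC2 and -0.10 ± 0.03 (0.0756) for the mean of both. Without siCtrl replicate 6, SLC7A1 passed with siRagC2 (-0.13; edgeR adjusted p = 0.0325) and for the mean of both (-0.12; edgeR adjusted p = 0.016).

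SLC7A2 had 38.8, 55.5 and 64.9 CPM with siRagC1 and 38.1, 48.5 and 51.8 CPM with siRagC2, against 39.5, 53.7 and 60.1 CPM with siCtrl. The groups overlapped, and most of the spread within each group lay between the code series, with a mean of 41.0 CPM in D1103 and 58.4 CPM in D1221 for siRagC1, 40.1 and 50.1 CPM for siRagC2, and 40.8 and 55.8 CPM for siCtrl. Its log2 fold changes were 0.05 ± 0.05 (edgeR adjusted p = 0.716) and -0.11 ± 0.05 (edgeR adjusted p = 0.276).

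SLC1A5 (ASCT2, ENSG00000105281) and SLC1A4 (ASCT1, ENSG00000115902) are related sodium-dependent exchangers of small neutral amino acids, and glutamine is a substrate of SLC1A5. SLC1A5 had 167, 181 and 197 CPM with siRagC1 and 154, 176 and 193 CPM with siRagC2, against 152, 209 and 230 CPM with siCtrl (lowest, median, highest). All libraries of both siRNAs lay within the siCtrl range, whose lower end was siCtrl replicate 6. The next siCtrl library stood at 198 CPM, above every library of either RagC siRNA. On the log2 scale the change was -0.15 ± 0.07 (edgeR adjusted p = 0.296) with siRagC1 and -0.23 ± 0.07 (0.0909) with siRagC2.

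SLC1A4 was the least abundant member, with 71 to 212 counts per siRagC1 library, 41 to 266 per siRagC2 library and 49 to 205 per siCtrl library. It had 3.08, 3.65 and 4.36 CPM with siRagC1 and 2.54, 2.93 and 3.68 CPM with siRagC2, against 2.54, 4.14 and 5.55 CPM with siCtrl. Here too siCtrl replicate 6 was the lowest siCtrl library, and the libraries of both siRNAs lay within the siCtrl range. The change on the log2 scale was -0.18 ± 0.12 (edgeR adjusted p = 0.475) with siRagC1 and -0.40 ± 0.13 (95% interval -0.66 to -0.14; edgeR adjusted p = 0.0817) with siRagC2.

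Whether SLC1A4 and SLC1A5 passed with siRagC2 rested on the fit and on single libraries. With the replicate number as a block, both passed (-0.43, edgeR adjusted p = 0.0193, for SLC1A4 and -0.23, edgeR adjusted p = 0.0406, for SLC1A5), and 986 of all tested genes were called in place of 495. Without siCtrl replicate 6 both passed as well (-0.49, edgeR adjusted p = 0.0186, and -0.30, edgeR adjusted p = 0.00314), and SLC1A5 then also passed with siRagC1 (-0.22; edgeR adjusted p = 0.0271). Without siRagC2 replicate 3, the highest siRagC2 library for both genes, SLC1A4 passed (-0.53; edgeR adjusted p = 0.0253). For the mean of both siRNAs, whose values were -0.29 ± 0.11 for SLC1A4 and -0.19 ± 0.06 for SLC1A5 (edgeR adjusted p = 0.121 and 0.0845), both passed without siCtrl replicate 6 (-0.38, adjusted p = 0.0273, and -0.26, adjusted p = 0.00271) and SLC1A4 also without siRagC2 replicate 3 (-0.35, adjusted p = 0.0467).

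The siRagC2 value was further from 0 in series D1103 than in D1221 for both genes, at -0.68 ± 0.20 and -0.23 ± 0.16 for SLC1A4 and at -0.42 ± 0.12 and -0.13 ± 0.09 for SLC1A5. The difference between the series itself did not pass for either gene (0.45 ± 0.25, edgeR adjusted p = 0.739, for SLC1A4 and 0.29 ± 0.15, edgeR adjusted p = 0.735, for SLC1A5). RRAGC was also lower in the D1103 libraries of siRagC2, as given above, and its part in this was not tested.

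**Figure D3:**
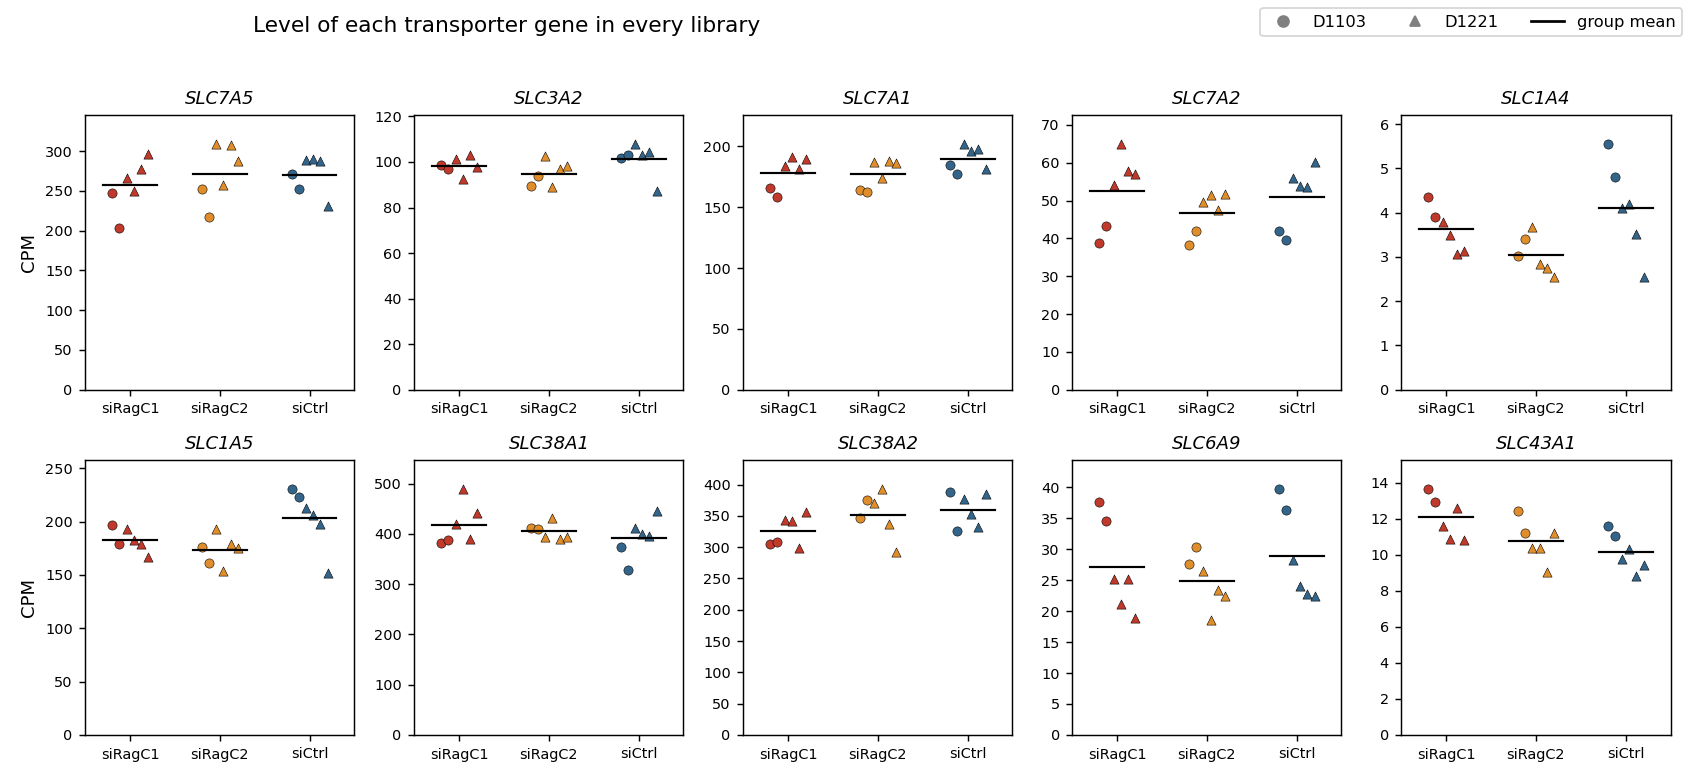
CPM of each transporter gene in every library, by group, with circles for code series D1103, triangles for D1221 and a line at the group mean. The lowest siCtrl triangle of SLC1A5 (152 CPM) and of SLC3A2 (87.1 CPM) is replicate 6, and 4 of 6 siRagC1 libraries of SLC43A1 lie above the highest siCtrl library.

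SLC38A1 (SNAT1, ENSG00000111371) and SLC38A2 (SNAT2, ENSG00000134294) carry small neutral amino acids, glutamine among them, into the cell together with sodium. SLC38A1 had 382, 405 and 488 CPM with siRagC1 and 390, 402 and 432 CPM with siRagC2, against 329, 398 and 445 CPM with siCtrl (lowest, median, highest), and the groups overlapped. Its log2 fold changes were 0.09 ± 0.06 (edgeR adjusted p = 0.412) with siRagC1 and 0.05 ± 0.06 (0.686) with siRagC2. The siRagC2 value was 0.23 ± 0.09 in D1103 and -0.04 ± 0.06 in D1221, and this difference of -0.26 ± 0.11 did not pass either (unadjusted p = 0.0251, edgeR adjusted p = 0.735).

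SLC38A2, a gene that amino acid shortage is known to induce, had 299, 325 and 356 CPM with siRagC1 and 291, 358 and 392.2 CPM with siRagC2, against 325, 364 and 387 CPM with siCtrl. With siRagC1, 3 libraries lay below the lowest siCtrl library, and 6 of 6 were below the siCtrl mean of their code series. With siRagC2, 3 of 6 were below that mean and 3 above. The log2 fold changes were -0.14 ± 0.07 (95% interval -0.28 to -0.01; unadjusted p = 0.0375, edgeR adjusted p = 0.258) and -0.03 ± 0.07 (-0.17 to 0.11; edgeR adjusted p = 0.858).

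SLC6A9 (GLYT1, ENSG00000196517), a sodium- and chloride-dependent glycine importer, had 18.8, 25.3 and 37.7 CPM with siRagC1 and 18.6, 25.0 and 30.4 CPM with siRagC2, against 22.4, 26.2 and 39.7 CPM with siCtrl. The groups overlapped, and here the code series differed more than the groups. The mean was 36.1 CPM in D1103 and 22.6 CPM in D1221 for siRagC1, 29.003 and 22.8 CPM for siRagC2, and 38.0 and 24.4 CPM for siCtrl. Its log2 fold changes were -0.10 ± 0.09 (edgeR adjusted p = 0.637) and -0.20 ± 0.09 (unadjusted p = 0.0475, edgeR adjusted p = 0.263).

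Other members also differed between the code series in siCtrl libraries, where the siRNA against RagC plays no part. The siCtrl mean in D1103 was 1.44 times that in D1221 for SLC1A4, 1.18 times for SLC1A5 and SLC43A1 and 1.56 times for SLC6A9, but only 0.731 times for SLC7A2 and 0.850 times for SLC38A1. In these 6 genes the siCtrl libraries of the 2 series did not overlap, whereas those of SLC7A5, SLC3A2, SLC7A1 and SLC38A2 did. Over all 15307 tested genes, 47% had siCtrl libraries that did not overlap between the series, so that 6 of 10 is near the share of all genes. With 2 siCtrl libraries in D1103 and 4 in D1221, no test of this difference was made.

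The members were also read library by library, as the log2 ratio to the siCtrl mean of the same code series. The ratios of SLC43A1 ran from 0.18 to 0.40 in the siRagC1 libraries and from -0.08 to 0.23 in the siRagC2 libraries, against -0.12 to 0.11 in the siCtrl libraries. Those of SLC1A5 ran from -0.34 to 0.01 with siRagC1 and from -0.49 to 0.01 with siRagC2, against -0.34 to 0.15 with siCtrl. The lowest of the siCtrl ratios of SLC1A5 was that of replicate 6, which is part of the mean it is set against. In siCtrl replicate 6, 5 of the 10 members had their lowest siCtrl value (SLC7A5, SLC3A2, SLC1A4, SLC1A5 and SLC6A9) and 2 their highest (SLC7A2 and SLC38A1). The share of all genes with such values there was not counted. Replicate 6 stood apart over all tested genes, not in the members alone. Its chi-square per gene was 15.6, 19.9 and 21.3 against siCtrl replicates 5, 4 and 3. Those replicates had 2.81 to 4.32 among themselves. Nor was it the only library apart. In siRagC1, replicate 4 had 36.4, 26.3 and 27.5 against replicates 3, 5 and 6, which had 5.08, 23.1 and 9.50 among themselves. Mitochondrial genes held 2.55% of its counts, against 4.94%, 4.72% and 4.08% in those 3 libraries. The chi-square grows with depth, so it was not compared between groups.

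**Figure D4:**
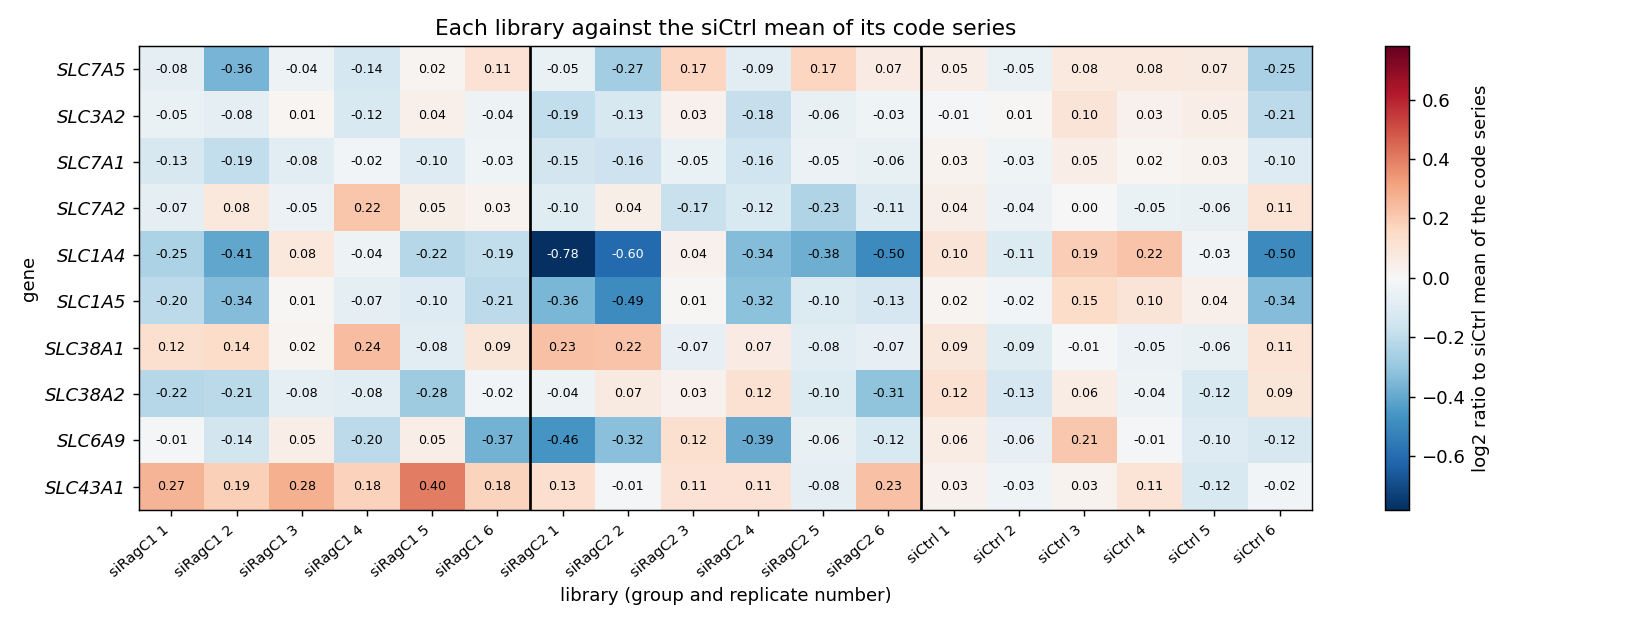
Log2 ratio of each siRagC1, siRagC2 and siCtrl library (columns, by replicate number) to the siCtrl mean of its code series for the 10 transporter genes (rows), with positive ratios in red and negative ones in blue. SLC43A1 is positive in all 6 siRagC1 columns, SLC7A1 is negative in all siRagC1 and siRagC2 columns, and SLC1A5 stands at -0.34 in siCtrl replicate 6.

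Between the siRNAs, siRagC1 against siRagC2, edgeR called 0 of the 10 members and 0% of all 15307 tested genes. Only 2 members passed at an unadjusted p under 0.05, SLC7A2 and SLC43A1, beside 1187 of all tested genes. DESeq2 and limma-voom called 0 members. SLC7A2 was higher with siRagC1 in 6 of 6 same-numbered pairs (0.16 ± 0.05; 95% interval 0.05 to 0.27; unadjusted p = 0.00778, edgeR adjusted p = 0.448), and SLC43A1 had 0.16 ± 0.06 (0.03 to 0.29; unadjusted p = 0.0149, edgeR adjusted p = 0.514). SLC1A4 was also higher with siRagC1 in 6 of 6 pairs (0.22 ± 0.12; -0.03 to 0.48; edgeR adjusted p = 0.706). For SLC38A2, which had 6 of 6 siRagC1 and 3 of 6 siRagC2 libraries below the siCtrl mean of their series, the difference was -0.11 ± 0.07 (-0.25 to 0.02; edgeR adjusted p = 0.709).

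For 3 pairs of members, the levels were compared over the 18 libraries as log2(CPM + 1) centred on the mean of group and code series, with p from 100000 permutations within these and adjusted over the 3 pairs. SLC1A4 and SLC1A5 had a Pearson r of 0.79 (adjusted permutation p = 0.0228) and a Spearman rho of 0.70 (adjusted permutation p = 0.015). SLC38A1 and SLC38A2 had an r of 0.66 (0.0228) and a rho of 0.68 (0.015 by the same permutation test). SLC7A5 and SLC3A2, subunits of 1 exchanger, had an r of 0.68 (0.0228) but a rho of 0.38 (0.157). Without the 2 libraries farthest from the median of the first gene, r was 0.58 (adjusted permutation p = 0.189) for SLC1A4 with SLC1A5, 0.70 (0.127) for SLC38A1 with SLC38A2 and 0.33 (0.331) for SLC7A5 with SLC3A2. None of these r passed. The rho without those libraries was 0.58 (adjusted permutation p = 0.162), 0.71 (0.0414) and 0.12 (0.701), so that only SLC38A1 with SLC38A2 passed, by rho. In these fits neither SLC7A5 with SLC3A2 nor SLC1A4 with SLC1A5 passed, by r or by rho. The values were not centred again after those libraries were left out, so the libraries still act through the means of group and code series. The permutations carry the same limit. How far each relation rests on those libraries was therefore not settled.

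Within the 12 libraries of D1221, r was 0.85 for SLC1A4 with SLC1A5, 0.61 for SLC38A1 with SLC38A2 and 0.86 for SLC7A5 with SLC3A2 (adjusted permutation p = 0.022, 0.0337 and 0.022). Within the 6 libraries of D1103, where the permutations are too few to pass, it was 0.15, 0.90 and -0.35 for the pairs in that order. Library size and processing are shared by the genes of a pair in each library, and their part in these relations was not tested.

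**Figure D5:**
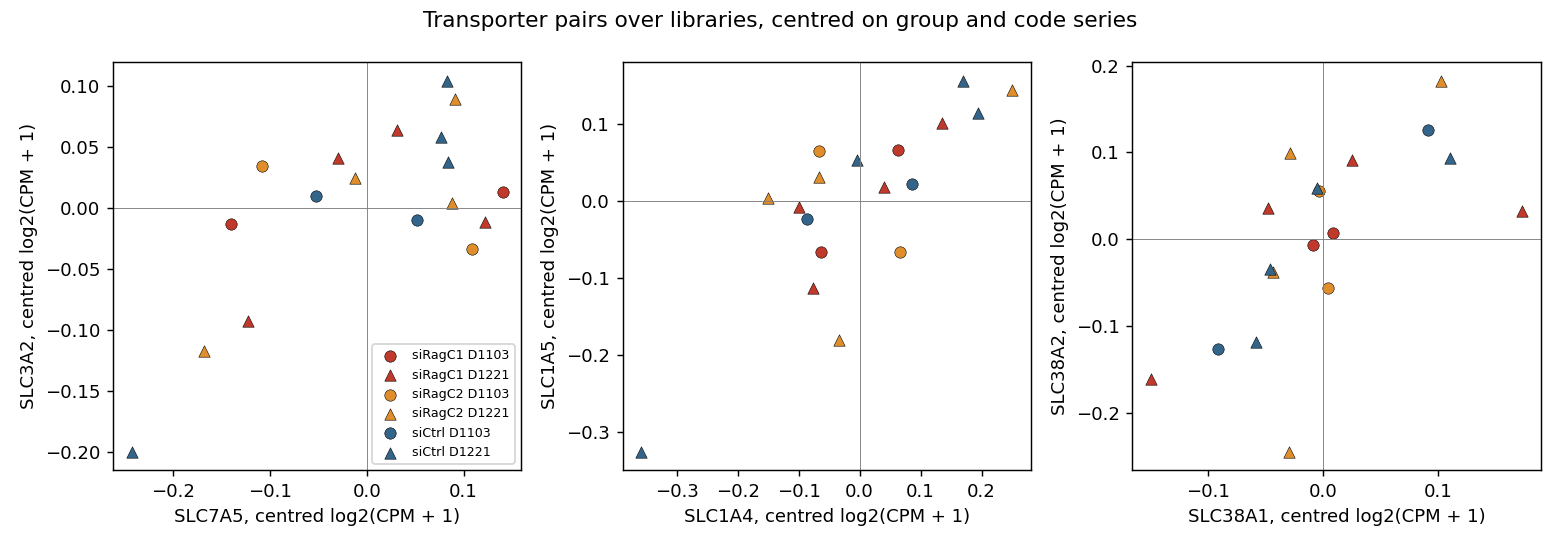
Level of 1 gene against the other in each of 18 libraries, as log2(CPM + 1) centred on the mean of group and code series, for SLC7A5 with SLC3A2, SLC1A4 with SLC1A5 and SLC38A1 with SLC38A2 (colours for groups, circles for D1103, triangles for D1221). The siCtrl D1221 triangle at the lower left of the first 2 panels is replicate 6, and r over all libraries is 0.68, 0.79 and 0.66.

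Of 30 other plasma membrane amino acid transporters listed for comparison, 29 were in the table and 12 had enough counts to be tested. With siRagC1, with siRagC2 and for the mean of both, edgeR called 1 as lower and 0 as higher each time, and the called gene was SLC7A6 in each. Of all tested genes, 0.627%, 1.36% and 2.23% were called as lower in these comparisons. The median log2 fold change of the 12 was -0.02, 0.02 and 0.02, beside 0.0051, 0.0047 and 0.0055 over all tested genes. SLC7A6 (y+LAT2) is a partner of SLC3A2 that exchanges cationic for neutral amino acids. It had 57.4, 68.5 and 82.1 CPM with siRagC1 and 60.0, 69.8 and 74.0 CPM with siRagC2, against 72.0, 78.6 and 89.5 CPM with siCtrl (lowest, median, highest). It was below its same-numbered siCtrl library in 6 of 6 pairs with siRagC2, although the groups overlapped with both siRNAs. It fell by 0.21 ± 0.05 on the log2 scale with siRagC1 (edgeR adjusted p = 0.0382) and by 0.21 ± 0.05 with siRagC2 (edgeR adjusted p = 0.0308). For the mean of both, the edgeR adjusted p was 0.011. Single libraries decided the call with 1 siRNA: it was lost without 1 of 8 libraries with siRagC1 (siRagC1 replicates 1 to 5 and siCtrl replicates 1, 2 and 5; adjusted p 0.0529 to 0.125) and without 1 of 6 with siRagC2 (siRagC2 replicates 1, 2, 4 and 5 and siCtrl replicates 1 and 2; adjusted p 0.0508 to 0.0883), but it held for the mean of both without any 1 library. Without siRagC2 replicate 6, 3 of the listed transporters were called with siRagC2.

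Of 10 amino acid or peptide transporters of lysosomes and endosomes, 9 were tested, among them SLC38A9, the arginine sensor upstream of the Rag GTPases, at -0.03 with siRagC1 and -0.05 with siRagC2. edgeR called 0 with siRagC1, with siRagC2 and for the mean of both, where 2.04%, 3.23% and 4.95% of all tested genes were called. An unadjusted p under 0.05 was reached by 3, 3 and 4 of them, beside 2613, 2833 and 3060 of the 15307 tested genes. DESeq2 and limma-voom each called 1 with siRagC1, 0 with siRagC2 and 1 for the mean of both. By edgeR, 1 was called with siRagC1 without siRagC1 replicate 6 or siCtrl replicate 3, 1 with siRagC2 without siRagC2 replicate 2, and 1 for the mean of both without siRagC1 replicate 6, siRagC2 replicate 2 or 5 or siCtrl replicate 5. The median log2 fold change was 0.10, 0.13 and 0.09, and 2 of 9 were negative in each, beside 48.3%, 48.3% and 48.0% of all tested genes. The highest siRagC1 value was that of CTNS, the lysosomal cystine exporter, named here after its value was seen, at 0.24 (edgeR adjusted p = 0.057).

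Of 14 factors and markers of the amino acid response, all were tested. edgeR called 1 as lower with siRagC1, 2 as lower with siRagC2 and 2 as lower for the mean of both, and 0 as higher, where 2.04%, 3.23% and 4.95% of all tested genes were called in either direction. The median log2 fold change of the 14 was -0.02, -0.04 and -0.02, and 8, 9 and 8 of them were negative. CEBPG, a partner of ATF4 on DNA, was called with both siRNAs. It had 47.3, 65.5 and 69.0 CPM with siRagC1 and 53.3, 63.5 and 70.3 CPM with siRagC2, against 56.3, 74.1 and 78.3 CPM with siCtrl (lowest, median, highest), and it fell by 0.21 ± 0.05 (edgeR adjusted p = 0.0177) and by 0.18 ± 0.05 (edgeR adjusted p = 0.0355) on the log2 scale. ASNS, asparagine synthetase, had 19.7, 22.9 and 28.1 CPM with siRagC1 and 18.9, 21.7 and 26.6 CPM with siRagC2, against 23.02, 26.9 and 31.2 CPM with siCtrl. It fell by 0.31 ± 0.07 with siRagC2 (edgeR adjusted p = 0.0225) and had -0.21 ± 0.07 with siRagC1 (edgeR adjusted p = 0.133). In both genes the groups overlapped, and each gene was below its same-numbered siCtrl library in 6 of 6 pairs with siRagC2. Of 30 alternatives, 5 lost the CEBPG call with siRagC1, 13 that with siRagC2 and 6 the ASNS call with siRagC2. In D1221 alone none of these calls held (edgeR adjusted p = 0.658, 0.316 and 0.428 in that order).

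ATF4 itself, named after its values were seen, averaged 204 CPM with siRagC1, 189 CPM with siRagC2 and 225 CPM with siCtrl, with log2 fold changes of -0.14 (edgeR adjusted p = 0.318) and -0.25 (edgeR adjusted p = 0.0504). Other genes of the list, also named after their values were seen, had positive values that did not pass. With siRagC1, NUPR1 had 0.49 (unadjusted p = 0.0144, edgeR adjusted p = 0.167) and CEBPB 0.33 (unadjusted p = 0.039, edgeR adjusted p = 0.263), and with siRagC2, DDIT4 had 0.20 (unadjusted p = 0.0471, edgeR adjusted p = 0.262). With the replicate number as a block, edgeR called 4 of the 14 with siRagC2 in place of 2. Single libraries moved these counts: without siRagC1 replicate 2 or siCtrl replicate 1, 0 were called with siRagC1, and without siRagC2 replicate 1, siRagC2 replicate 4 or siCtrl replicate 1, 0 were called with siRagC2. Only 1 was called with siRagC2 without siRagC2 replicate 5 or 6 or siCtrl replicate 3 or 4. For the mean of both, 1 was called without siCtrl replicate 1 or 4. Without siRagC1 replicate 6, 2 were called with siRagC1. The 5 members whose windows hold the response element core had log2 fold changes of -0.04 (SLC3A2), -0.09 (SLC7A1), -0.18 (SLC1A4), -0.15 (SLC1A5) and 0.09 (SLC38A1) with siRagC1, and of -0.09, -0.10, -0.40, -0.23 and 0.05 with siRagC2, and none was called by edgeR with either siRNA. The members whose windows lack the core had -0.08 (SLC7A5), -0.14 (SLC38A2), -0.10 (SLC6A9) and 0.25 (SLC43A1) with siRagC1, and 0.00, -0.03, -0.20 and 0.08 with siRagC2. SLC7A2, at 0.05 and -0.11, had no window. A core outside the windows would not be seen. The members with an E-box, SLC7A5, SLC1A5 and SLC43A1, had -0.08, -0.15 and 0.25 with siRagC1 and 0.00, -0.23 and 0.08 with siRagC2. A relation of either motif to these values was not tested.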

How the data were processed

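The authors deposited raw counts per gene of 18 libraries in 1 table. Per the submitters' processing notes, cutadapt and STAR 2.7.6a were used on GRCh37/hg19. The sources used here do not give the counting tool, strand setting or annotation release, so reads of overlapping or antisense genes cannot be told apart. Groups and replicate numbers come from the labels, and the code series from the library codes. Their meaning was not given.

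Counts were fitted in R 4.3.3 with edgeR 4.0.16 (the robust quasi-likelihood F test, after filterByExpr by group and with TMM factors) over all 18 libraries with terms for code series and group. Genes were called at p under 0.05 after Benjamini-Hochberg adjustment over 15307 tested genes. Of the 57820 identifiers, 51996 had a symbol. CPM used TMM-scaled library sizes, and the depth was 14.8 M to 71.6 M counts. Exon lengths came from GENCODE v29 and promoter windows from RefSeq (GRCh38.p14). The procedure was tested on simulated data. The genes described, the 3 comparison lists and the tests were chosen with earlier results of these data known. Named genes are all members, RRAGC and up to 4 called genes per list. SLC38A9, CTNS, ATF4, NUPR1, CEBPB and DDIT4 were named outside this rule. Same-numbered libraries were counted as pairs where every pair's deviations from the group means correlated above 0.1. This held for siRagC2 with siCtrl (0.110 to 0.484) and for siRagC1 with siRagC2 (0.210 to 0.571), not for siRagC1 with siCtrl (0.0730 to 0.596). Same-numbered libraries also share a code series, and the deviations still hold the differences between the series. These correlations therefore do not show pairing by replicate number apart from the code series. The alternatives tried were DESeq2 1.42.0, limma-voom (limma 3.58.1), RLE or upper-quartile factors, no filter or 5 CPM in at least 6 libraries, the replicate block, no code series term, fits of the compared groups or of 1 code series only, each library left out, and an adjusted p under 0.01.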

Additional observations from a re-analysis of the deposited data

Results flagged for a closer look

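Of 30 sets of values examined (10 genes in 3 groups of 6 libraries), 1 had a library far from the others. SLC3A2 stood at 87.1 CPM in siCtrl replicate 6, the lowest of the 6 siCtrl libraries. The gap to the next library was 0.701 of the whole range of the group, above Dixon's critical value of 0.625. Chance flags about 1 in 20 such sets. The SLC3A2 values against siCtrl were not past the threshold with or without this library.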

How the results depend on the processing

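With siRagC1, the fits with no filter, with no code series term, of the compared groups alone, of D1103 alone, of D1221 alone and at an adjusted p under 0.01 called 0 members as higher, and D1103 alone called 1 as lower (SLC1A5). With siRagC2, D1103 alone called 1 member as higher (SLC38A1) and 3 as lower (SLC1A4, SLC1A5 and SLC6A9). No filter called 2 as lower and DESeq2 3. For the mean of both, no filter called 1 as lower, and DESeq2 and D1103 alone 2 each. The cause was not tested. With single libraries left out, the members called as higher numbered 0 to 1 with siRagC1, and those called as lower 0 to 1 with siRagC1, 0 to 3 with siRagC2 and 0 to 3 for the mean of both.

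Over all genes, the calls were 312 with siRagC1, 495 with siRagC2, 758 for the mean of both and 0 between the siRNAs. No filter gave 799, 843 and, between the siRNAs, 219. DESeq2 gave 778, 1005, 1284 and 29. No code series term gave 7, 19 and 44, D1103 alone 554, 1149, 1140 and 231, D1221 alone 1, 1 and 8, and an adjusted p under 0.01 gave 54, 98 and 174. The compared groups alone gave 126 with siRagC1. Leaving out 1 library gave 78 to 893, 197 to 644, 265 to 1033 and 0 to 78.

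Of the 6 siRagC1 libraries, 5 correlated best with the siCtrl library of their own number, against 3 of the 6 siRagC2 libraries. With siRagC1 the numbers were not counted as pairs. SLC43A1 stayed past the threshold with the replicate number as a block (0.24, edgeR adjusted p = 0.0303). This block called 864 genes with siRagC1. It called 986 with siRagC2 and 1352 for the mean of both, with 2 members as lower in each, SLC1A4 and SLC1A5 (for the mean -0.31, adjusted p = 0.0383, and -0.19, adjusted p = 0.0387, edgeR), and 0 between the siRNAs. It called 3, 4 and 4 response genes with siRagC1, with siRagC2 and for the mean, and 1 lysosomal transporter with siRagC1 and for the mean. It changed no other call of the members.

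Of the listed other transporters, 0 were called with no code series term, with D1221 alone and at an adjusted p under 0.01 in each comparison with siCtrl, and with the compared groups alone for siRagC1. DESeq2 called 2 with siRagC1, no filter 2 with siRagC2 and 1 between the siRNAs, and D1103 alone 4 with siRagC2 and 2 for the mean. Of the lysosomal list, upper-quartile factors, the 5 CPM filter, DESeq2, limma-voom and D1103 alone called 1 with siRagC1 and 1 for the mean, and no filter 1 with siRagC1. Of the response list, no code series term and D1221 alone called 0 in each comparison with siCtrl. An adjusted p under 0.01 called 0, 0 and 1, no filter 3, 4 and 4 and, between the siRNAs, 1, D1103 alone 2 with siRagC1 and 1 between the siRNAs, and the compared groups alone 1 with siRagC2. Over single libraries left out, the other transporters called numbered 0 to 1, 0 to 3 and 1, the lysosomal ones 0 to 1 in each, and the response genes 0 to 2, 0 to 3 and 1 to 3.

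Values near 0 changed sign. SLC7A5 with siRagC2 was -0.0016 with RLE factors, -0.00087 with no filter, -0.0014 with DESeq2, -0.0017 with the block and -0.16 in D1103 alone, and -0.055 to 0.040 with 1 library left out. SLC38A1 with siRagC2 was -0.035 in D1221 alone. SLC38A2 with siRagC2 was 0.019 in D1103 alone and -0.063 to 0.021 with 1 library left out. For the mean of both, SLC7A5 was 0.036 in D1221 alone. Between the siRNAs, SLC7A1 was -0.0070, SLC38A1 -0.093 (D1103 alone) and SLC6A9 -0.018 (D1221 alone), SLC7A6 0.00062 with no filter, 0.00078 with no code series term and 0.030 in D1221 alone, and CEBPG 0.0092 in D1221 alone. With 1 library left out, these ran from -0.0047 to 0.024 for SLC7A1, from -0.00012 to 0.067 for SLC38A1 and from -0.047 to 0.028 for SLC7A6. The r of SLC7A5 with SLC3A2 was -0.346 in D1103 alone and 0.332 with the 2 libraries farthest from the median left out after centring. In these fits r was 0.150 and 0.578 for SLC1A4 with SLC1A5 and 0.896 and 0.696 for SLC38A1 with SLC38A2. Centred on code series only, r was 0.351 (adjusted permutation p = 0.169) for SLC38A1 with SLC38A2 and 0.877 (9e-05) for SLC1A4 with SLC1A5.

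A fit of the compared groups alone was not possible for the mean of both siRNAs, and SLC1A4 did not pass the 5 CPM filter. Depth limits SLC1A4 most, at as few as 41 counts in a library. Against siCtrl, a 95% interval of the members reached 0.38 at most on the higher side and -0.66 on the lower.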
